A study of Mus musculus with 91 samples.

Results

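The transforming growth factor beta (TGF-beta) pathway was followed through 6 genes: the ligand Tgfb1, the receptors Tgfbr1 and Tgfbr2, the signal carriers Smad2 and Smad3, and the inhibitor Smad7. They were chosen by gene symbol, with earlier results on the genotype comparison of these arrays in view, so the genotype values of these genes are given below as a description. Array annotation assigned 8 of the 25697 probes to 5 of the 6 genes, out of 12115 named genes in all. No probe was annotated to Smad7, and it is not analysed here.

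TGF-beta 1 is a secreted cytokine that is stored in a latent form and must be released before it acts. The active ligand binds the type II receptor TGFBR2, which recruits and phosphorylates the type I receptor TGFBR1, and TGFBR1 in turn phosphorylates SMAD2 and SMAD3, which enter the nucleus and regulate transcription. In the adult mouse brain, microglia, the resident macrophages, depend on this signal for their identity.

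Frontal cortex and hippocampus came from APP/PS1 mice, a double transgenic model that deposits amyloid plaques, and from their wild-type (WT) littermates. The APP/PS1 mice were infused with an antisense oligonucleotide against CD33 (CD33 ASO), with a control oligonucleotide that has no target (CON ASO) or with phosphate-buffered saline (PBS), and the WT mice with PBS. Oligonucleotides were given at 50 µg per day for 14 days, starting at an age of 18 weeks, by an osmotic pump whose cannula ended in the right lateral ventricle. Tissue was taken from the opposite, left hemisphere at 22 weeks. PBS was delivered in the same way, so WT mice also had surgery. Hippocampus was measured in 12 CD33 ASO, 13 CON ASO, 9 APP/PS1 PBS and 12 WT mice, and cortex in 11, 13, 9 and 12 mice of the same groups, 1 Illumina bead array per mouse and tissue. In all there were 91 arrays of 47 mice, and 44 mice had both tissues. Hippocampus and cortex were run on separate chips, 6 for each tissue. Values are log2 signals after background correction and normalization, which hold an added offset of 16, so that folds of dim probes are understated.

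Between 12951 and 13905 probes were detected per hippocampal array and between 12555 and 13802 per cortical array. The tissues carried their own markers, with 5 of 6 hippocampal markers higher in hippocampus of WT mice and 7 of 9 cortical markers lower (the cortical marker Fezf2 was 1.73-fold higher). In WT mice C1ql2, a dentate gyrus gene, was 58.9-fold higher in hippocampus than in cortex and Spink8, a gene of pyramidal cells in the hippocampus, 14.7-fold higher, while Tbr1, a cortical transcription factor, was 2.21-fold lower. Cd33 lay between 5.07 and 6.38 in hippocampus of CD33 ASO mice, against 6.33 to 6.89 in CON ASO mice, and between 5.05 and 7.10 in cortex, against 6.62 to 7.55. The cortical 5.05 was that of CD33 ASO replicate 3, described below, and without it the range was 5.77 to 7.10. Thy1, whose promoter drives the transgenes of this model and whose probe read higher in them, lay between 14.74 and 14.93 on APP/PS1 arrays of both tissues except those of 1 mouse. The library labelled CD33 ASO replicate 3 read 14.02 in hippocampus and 14.10 in cortex for Thy1, within the 13.96 to 14.18 and 14.08 to 14.24 of WT mice, so it went against its genotype label. For the member genes, CD33 ASO comparisons and correlations are also given without it. Hippocampal APP/PS1 PBS replicate 6 stood above its group for both receptors and for microglial markers.

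The promoters of the 3 genes whose signal was higher in APP/PS1 than in WT mice are shown because these genes moved together. Each window holds 300 bases, most of them before the annotated start, as RefSeq gives it for mouse build GRCm38.p6, and all 3 symbols were matched. Capitals mark matches, on either strand, to 4 short motifs: CAGAC (a Smad box), GAGGAAG (a PU.1-type motif of macrophage genes), TGANTCA (AP-1-type) and GGGCGG (a GC box). Positions count from the first transcribed base as 0, and a match is a description of the letters, not a binding site.
Tgfb1, chr7:25686752-25687051, plus strand: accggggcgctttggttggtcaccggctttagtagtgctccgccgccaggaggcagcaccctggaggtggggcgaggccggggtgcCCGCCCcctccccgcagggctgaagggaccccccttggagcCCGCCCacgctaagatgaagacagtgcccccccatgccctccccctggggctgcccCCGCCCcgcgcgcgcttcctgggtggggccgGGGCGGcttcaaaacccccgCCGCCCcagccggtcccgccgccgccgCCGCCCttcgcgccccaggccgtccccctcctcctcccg
Tgfbr1, chr4:47352972-47353271, plus strand: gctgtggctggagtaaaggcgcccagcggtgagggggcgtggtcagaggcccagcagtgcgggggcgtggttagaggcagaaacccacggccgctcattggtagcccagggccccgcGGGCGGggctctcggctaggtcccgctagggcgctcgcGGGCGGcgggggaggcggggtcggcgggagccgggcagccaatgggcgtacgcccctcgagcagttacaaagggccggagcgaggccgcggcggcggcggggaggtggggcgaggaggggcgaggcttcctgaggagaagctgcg
Tgfbr2, chr9:116175314-116175613, minus strand: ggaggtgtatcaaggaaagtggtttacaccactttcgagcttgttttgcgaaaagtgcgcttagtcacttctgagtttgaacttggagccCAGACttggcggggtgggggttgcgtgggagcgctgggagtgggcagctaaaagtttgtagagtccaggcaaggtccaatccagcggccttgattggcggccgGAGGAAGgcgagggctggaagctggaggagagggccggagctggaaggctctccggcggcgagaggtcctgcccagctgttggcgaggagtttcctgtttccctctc

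The Tgfb1 window held 6 GC boxes and the Tgfbr1 window 2, and neither held another of the 4 motifs. The Tgfbr2 window held 1 Smad box at -160 and 1 PU.1-type match at -57, and no GC box. RefSeq gives Tgfbr1 a second start, at chr4:47385966-47386265, whose window held 1 Smad box and 1 PU.1-type match. Of all 32851 mouse promoter windows of this length, 49.6% held a Smad box, 13.6% a PU.1-type match, 7.81% an AP-1-type match and 35.7% a GC box. No motif was shared by the windows of all 3 genes.

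Tgfb1, the ligand, was higher in APP/PS1 PBS than in WT mice in both tissues. In hippocampus its lowest, median and highest signal were 6.79, 7.07 and 7.65 in APP/PS1 PBS mice, against 6.07, 6.50 and 6.68 in WT mice. In cortex they were 6.96, 7.78 and 8.11 in APP/PS1 PBS mice, against 5.97, 6.45 and 6.84 in WT mice. The groups did not overlap in either tissue: every APP/PS1 PBS array lay above every WT array. The difference, APP/PS1 minus WT, was 0.74 ± 0.13 in hippocampus and 1.25 ± 0.16 in cortex (log2, SE, n = 9 and 12 in each tissue), which is 1.67-fold and 2.37-fold.

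Tgfbr2, the ligand-binding receptor, showed a large cortical difference. Its hippocampal signal had a lowest, median and highest value of 9.46, 9.73 and 10.37 in APP/PS1 PBS mice, against 9.04, 9.23 and 9.64 in WT mice. Its cortical signal had 10.07, 10.47 and 10.72 in APP/PS1 PBS mice, against 9.02, 9.22 and 9.32 in WT mice. The cortical groups stood apart with no overlap, while in hippocampus 6 of the 9 APP/PS1 PBS arrays lay above the highest WT array and the other 3 within the WT range. The difference was 0.49 ± 0.09 in hippocampus (1.41-fold) and 1.26 ± 0.10 in cortex (2.40-fold). A second Tgfbr2 probe was detected on 1 hippocampal array of the APP/PS1 PBS group and on 1 cortical array of the CD33 ASO group, and was not tested.

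Tgfbr1, the kinase that TGFBR2 activates, was read by 3 probes, of which 1 was detected on all arrays. On that probe the lowest, median and highest hippocampal signal were 10.53, 10.66 and 11.22 in APP/PS1 PBS mice, against 10.02, 10.32 and 10.50 in WT mice. In cortex they were 10.88, 11.27 and 11.48 in APP/PS1 PBS mice, against 10.09, 10.37 and 10.59 in WT mice. Both pairs of groups were free of overlap, though the nearest arrays of the hippocampal groups lay close together. The difference was 0.43 ± 0.07 in hippocampus (1.35-fold) and 0.91 ± 0.09 in cortex (1.88-fold). A dimmer probe, detected on 0 hippocampal arrays of any group, was tested in cortex, where it was detected on 6 of 9 APP/PS1 PBS and 1 of 12 WT arrays and differed by 0.61 ± 0.17. The third probe was detected on at most 2 arrays of any group and tissue and was not tested.

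Smad2 and Smad3, which carry the receptor signal to the nucleus, did not show the pattern of the ligand and the receptors. Smad2 in hippocampus ran from 8.46 over a median of 8.68 to 8.76 in APP/PS1 PBS mice, against 8.44, 8.72 and 8.92 in WT mice. In cortex it ran from 8.80 over 8.98 to 9.11 in APP/PS1 PBS mice, against 8.79, 9.05 and 9.19 in WT mice. The groups overlapped in both tissues, with differences of -0.05 ± 0.07 and -0.07 ± 0.06. Smad3 in hippocampus had 9.48, 9.78 and 9.98 in APP/PS1 PBS mice, against 9.55, 9.82 and 10.09 in WT mice. In cortex it had 9.44, 9.60 and 9.90 in APP/PS1 PBS mice, against 9.26, 9.60 and 9.73 in WT mice. These groups overlapped as well, with differences of -0.07 ± 0.07 in hippocampus and 0.04 ± 0.08 in cortex. The 95% intervals of the 4 Smad differences lay between -0.21 and 0.20.

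**Figure D1:**
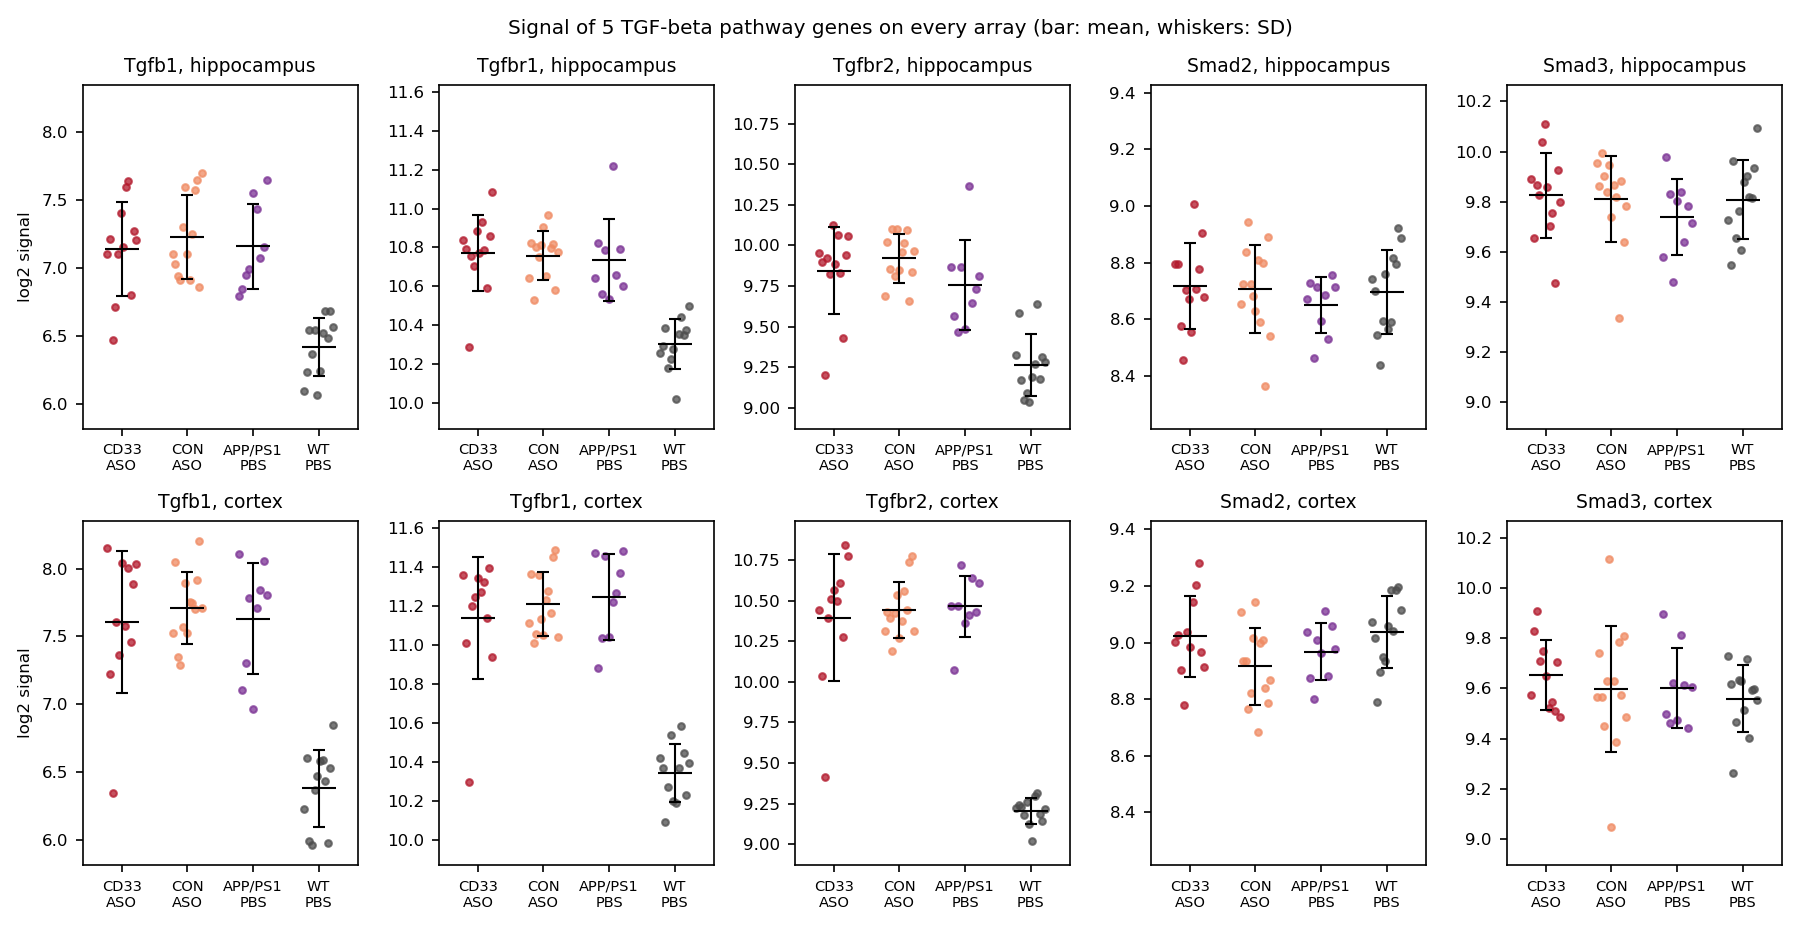
Log2 signal of 5 TGF-beta pathway genes on every array, by group, in hippocampus (upper row) and cortex (lower row), each point 1 mouse, with the mean as a bar and the SD as whiskers. Tgfb1, Tgfbr1 and Tgfbr2 lie above WT on most APP/PS1 arrays, with some overlap for Tgfbr2 in hippocampus and a low point for CD33 ASO replicate 3, and Smad2 and Smad3 overlap in all groups.

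In the limma model over all 4 groups of a tissue, 3 of 5 tested probes of these genes were past an adjusted p of 0.05 in hippocampus, all higher in APP/PS1 PBS mice, where 2.49% of all 14449 probes were past it. In cortex 4 of 6 were, all higher, where 19.3% of 14346 probes were. Groups without overlap were found for 2 of the 5 hippocampal probes, against 0.741% of all probes, and for 3 of the 6 cortical probes, against 2.77%. Since the genes were chosen with this comparison known, nothing is read from these shares. Without hippocampal APP/PS1 PBS replicate 6 the hippocampal difference was 0.37 for Tgfbr1 and 0.42 for Tgfbr2. The hippocampal differences kept their sign within each of the 6 hippocampal chips, from 0.52 to 1.19 for Tgfb1, 0.17 to 0.62 for Tgfbr1 and 0.26 to 0.86 for Tgfbr2. The cortical differences also kept it within each of the 6 cortical chips, from 0.95 to 1.74 for Tgfb1, 0.78 to 1.17 for Tgfbr1 and 1.06 to 1.43 for Tgfbr2. Within each of 4 collection days all 3 genes were likewise higher in APP/PS1 PBS mice in both tissues.

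The genotype difference was smaller in hippocampus than in cortex for the 2 receptors. The hippocampal minus the cortical difference, from all 91 arrays normalized together with the mouse as a random block, was -0.80 ± 0.12 for Tgfbr2, -0.48 ± 0.10 for Tgfbr1 and -0.53 ± 0.19 for Tgfb1. It was -0.11 ± 0.10 for Smad3 and 0.02 ± 0.08 for Smad2. The Tgfbr2 and Tgfbr1 values were past the threshold and the other 4 probes, the dimmer Tgfbr1 probe among them, were not, 2 of 6 where 3.28% of 15228 probes were. This comparison is the one the genes were chosen for, so the values stand as a description. Tgfb1 was past the threshold, at -0.62, only without the cortical array of APP/PS1 PBS replicate 5.

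**Figure D2:**
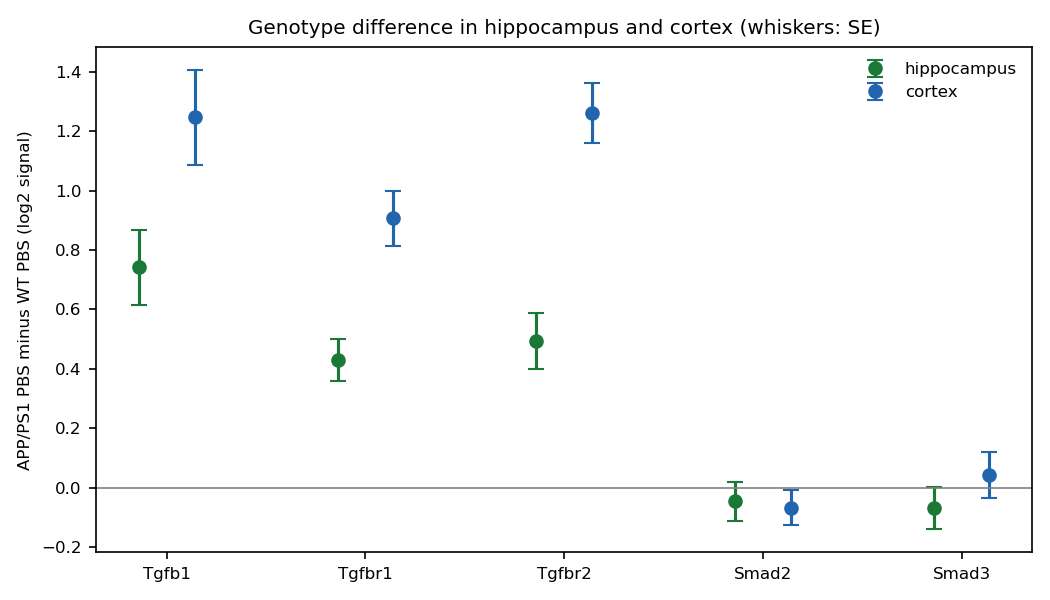
Difference in log2 signal, APP/PS1 PBS minus WT PBS, of 5 genes in hippocampus (green, left of each pair) and cortex (blue, right), with the SE as whiskers. Tgfbr2 differed by 0.49 in hippocampus and 1.26 in cortex, while both Smad genes lie near 0.

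Arrays of the oligonucleotide-infused APP/PS1 mice were not part of that comparison, and hippocampus was tested against cortex in them. No chip held both tissues, so in every group a difference between tissues cannot be told apart from one between chips. These tests were added after the data had been seen, on genes chosen with earlier results of these arrays known. Their adjusted p-values, for this gene and those below, do not allow for that choice and are not an independent test. Tgfbr2 was lower in hippocampus in 10 of 10 CD33 ASO mice with both tissues, by 0.42 ± 0.08 (limma, adjusted p = 1.10e-05), and in 12 of 13 CON ASO mice, by 0.41 ± 0.08 (adjusted p = 3.67e-06). Without replicate 3 the CD33 ASO difference was -0.47 (adjusted p = 5.85e-08), and with median centring in place of quantile normalization the CON ASO difference was -0.27 (adjusted p = 0.00259). The APP/PS1 PBS and WT arrays are those of the comparison the genes were chosen on, so their tissue differences are given as a description. Tgfbr2 was lower in hippocampus in 9 of 9 APP/PS1 PBS mice, with a difference of -0.59 ± 0.09, and in 2 of 12 WT mice, with a difference of 0.20 ± 0.08. With each tissue normalized on its own the WT difference was 0.06. Whether the oligonucleotide groups differ from WT in this tissue difference was not tested.

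Tgfbr1 was also lower in hippocampus in the oligonucleotide groups, in 9 of 10 CD33 ASO mice, by 0.27 ± 0.07 (adjusted p = 0.000903), and in 13 of 13 CON ASO mice, by 0.35 ± 0.06 (adjusted p = 1.99e-06). Without replicate 3 the CD33 ASO difference of Tgfbr1 was -0.31 (adjusted p = 1.73e-05). With median centring it was -0.17 in CD33 ASO mice (adjusted p = 0.0591) and -0.19 in CON ASO mice (adjusted p = 0.0157). As a description, Tgfbr1 was lower in 9 of 9 APP/PS1 PBS mice, with a difference of -0.41 ± 0.08, and in 4 of 12 WT mice, with a difference of 0.07 ± 0.07 that was -0.04 with each tissue normalized on its own. The dimmer Tgfbr1 probe was not above background in hippocampus. Its tissue differences were computed and enter the counts in the closing section, but nothing is read from them.

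Tgfb1 had a difference between the tissues of -0.26 ± 0.13 in CD33 ASO mice (adjusted p = 0.0872), lower in hippocampus in 7 of 10 mice, and of -0.32 without replicate 3 (adjusted p = 0.0208). That difference was also past the threshold without 1 of cortical replicates 2 and 3 or hippocampal replicates 8 and 9 of the group, at -0.37 to -0.30, and with each tissue normalized on its own (-0.46, adjusted p = 0.00132). In CON ASO mice Tgfb1 was lower in hippocampus in 11 of 13, by 0.29 ± 0.12 (adjusted p = 0.0321). This call was lost without any 1 of 8 arrays, cortical replicates 2, 11 and 12 and hippocampal replicates 2, 3, 4, 8 and 12, with differences of -0.27 to -0.25, and with no mouse block (adjusted p = 0.0574), median centring (adjusted p = 0.0609) or no filter on dim probes (adjusted p = 0.0629). With each tissue normalized on its own it was -0.49 (adjusted p = 0.000216). As a description, Tgfb1 was lower in hippocampus in 6 of 9 APP/PS1 PBS mice, with a difference of -0.27 ± 0.14, and in 3 of 12 WT mice, with a difference of 0.26 ± 0.12. With each tissue normalized on its own these were -0.47 and 0.03.

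Smad3 was higher in hippocampus in 10 of 10 CD33 ASO mice, by 0.31 ± 0.07 (adjusted p = 5.37e-05), and in 11 of 13 CON ASO mice, by 0.35 ± 0.06 (adjusted p = 8.68e-07). The CD33 ASO difference of Smad3 was 0.33 without replicate 3 (adjusted p = 3.81e-05). With each tissue normalized on its own it was 0.17 in CD33 ASO mice (adjusted p = 0.0195) and 0.21 in CON ASO mice (adjusted p = 0.00172). As a description, Smad3 was higher in 8 of 9 APP/PS1 PBS mice, with a difference of 0.27 ± 0.07 that was 0.14 with each tissue normalized on its own. It was higher in 12 of 12 WT mice, with a difference of 0.38 ± 0.06, or 0.25 with each tissue normalized on its own.

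Smad2 was lower in hippocampus in 8 of 10 CD33 ASO mice, by 0.15 ± 0.05 (adjusted p = 0.0121), and the difference was -0.15 without replicate 3 (adjusted p = 0.0193). With median centring the CD33 ASO difference was -0.10 (adjusted p = 0.165), and with each tissue normalized on its own -0.30 (adjusted p = 7.91e-07). In CON ASO mice Smad2 differed by -0.06 ± 0.05 (adjusted p = 0.321), lower in 7 of 13, by 0.04 with median centring (adjusted p = 0.616) and by -0.21 with each tissue normalized on its own (adjusted p = 0.000147). As a description, Smad2 was lower in 8 of 9 APP/PS1 PBS mice, with a difference of -0.17 ± 0.06, and in 12 of 12 WT mice, with a difference of -0.19 ± 0.05. With each tissue normalized on its own these were -0.32 and -0.34.

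Of the 5 probes detected in both tissues, 4 were past the threshold in CD33 ASO mice (5 without replicate 3), where 47.8% of all probes were, and 4 in CON ASO mice (56.4%). In the arrays the choice used, 4 were past it in APP/PS1 PBS mice (49.5%) and 3 in WT mice (54.3%), from which nothing is read. Between 47.8% and 56.4% of all probes differed between the tissues, so such counts say little about these genes.

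**Figure D3:**
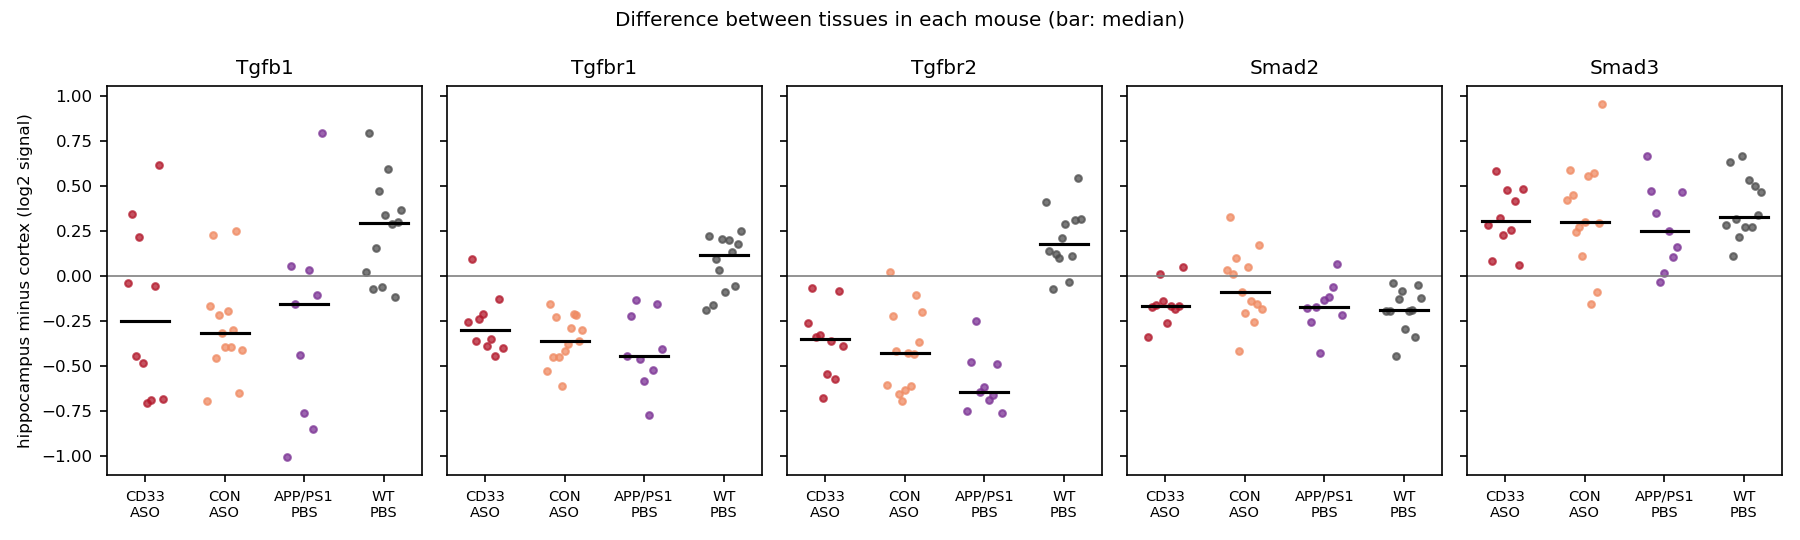
Hippocampus minus cortex in log2 signal for every mouse with both tissues, by group, with the group median as a bar. For Tgfbr2 the median is -0.35 in CD33 ASO, -0.43 in CON ASO, -0.64 in APP/PS1 PBS and 0.17 in WT mice, while Smad3 is above 0 at the median of all 4 groups.

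Neither oligonucleotide moved these genes past the threshold. The CON ASO comparison asks what infusing an oligonucleotide does beside saline, and the CD33 ASO comparison what the one against CD33 does beside the control. In the latter, lower CD33 and other effects of that oligonucleotide cannot be told apart. Of CON ASO over PBS, 0 of 5 probes were past it in hippocampus (1.29% of all probes) and 0 of 6 in cortex (2.63%). Of CD33 ASO over CON ASO, 0 of 5 were in hippocampus (0.118%) and 0 of 6 in cortex (0.153%). The differences of these effects between the tissues gave 0 of 6 each, against 0.0722% and 0% of all probes. In that last comparison limma called 0 of 15228 probes, and 1380 had an unadjusted p under 0.05. An unadjusted p under 0.05 was also reached by 0 probes of these genes in each of the 6 comparisons.

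The intervals bound what could have been missed. Tgfb1 had a lowest, median and highest signal of 6.47, 7.18 and 7.64 in hippocampus of CD33 ASO mice, against 6.86, 7.10 and 7.70 in CON ASO mice. In cortex it had 6.35, 7.61 and 8.15 in CD33 ASO mice, against 7.29, 7.71 and 8.20 in CON ASO mice. The groups overlapped, and the difference was -0.09 in hippocampus (95% interval -0.32 to 0.15) and -0.10 in cortex (-0.40 to 0.20). Tgfbr2 differed between the same groups by -0.08 in hippocampus (-0.25 to 0.10) and -0.05 in cortex (-0.23 to 0.14). Tgfbr1 differed on its brightest probe by 0.01 in hippocampus (-0.11 to 0.14) and -0.07 in cortex (-0.25 to 0.10). Its dimmer probe, detected on 4 of 11 CD33 ASO and 7 of 13 CON ASO cortical arrays, differed by -0.26 in cortex (-0.57 to 0.05). Without replicate 3 of CD33 ASO, the cortical differences were 0.02 for Tgfb1, 0.05 for Tgfbr2 and 0.01 for the brightest Tgfbr1 probe, and the hippocampal ones -0.02, -0.02 and 0.06, and 0 probes were past the threshold.

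Smad2 had the smallest unadjusted p among the CD33 ASO comparisons. In cortex it ran from 8.78 over 9.00 to 9.28 in CD33 ASO mice, against 8.68, 8.94 and 9.14 in CON ASO mice. The groups overlapped, with a difference of 0.11 ± 0.05 (adjusted p = 0.521), or 0.12 without replicate 3 (adjusted p = 0.411). Among the comparisons of CON ASO with PBS, hippocampal Tgfbr2 had the smallest. It ran from 9.66 over 9.96 to 10.10 in CON ASO mice, against 9.46, 9.73 and 10.37 in APP/PS1 PBS mice, with a difference of 0.16 ± 0.09 (adjusted p = 0.457). Smad3 differed by 0.00 to 0.07 in size between the groups of either oligonucleotide comparison in both tissues.

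Set against WT, most oligonucleotide arrays lay above the WT range for Tgfb1, Tgfbr2 and the brightest Tgfbr1 probe. In cortex all 13 CON ASO arrays lay above the highest WT array for these 3, as did 10, 11 and 10 of the 11 CD33 ASO arrays. In hippocampus all 13 CON ASO arrays did, and 11, 10 and 11 of the 12 CD33 ASO arrays, where 6 of 9 APP/PS1 PBS arrays did for Tgfbr2. On the dimmer Tgfbr1 probe in cortex, 4 of 13 CON ASO, 3 of 11 CD33 ASO and 3 of 9 APP/PS1 PBS arrays did. The share over all probes was not computed, so nothing is read from these counts. The arrays of CD33 ASO replicate 3, at 6.47 for Tgfb1, 10.29 for Tgfbr1 and 9.20 for Tgfbr2 in hippocampus, lay within the WT range there. In cortex that mouse had 6.35 for Tgfb1 and 10.30 for Tgfbr1, within the WT range, and 9.41 for Tgfbr2, just above it. These comparisons share the WT arrays with the genotype comparison.

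Among 7 lists of other pathway genes, the microglial genes that depend on TGF-beta had the highest median genotype difference in both tissues. These lists were drawn up with earlier results of these arrays known. Of 11 tested microglial genes described in mice as dependent on TGF-beta, 7 rose in hippocampus of APP/PS1 PBS mice and 10 in cortex, none fell, and their median difference was 0.59 and 1.06, against -0.000514 and -0.03 over all probes. Past the threshold were 2.49% of all probes in hippocampus and 19.3% in cortex. Of these 11 genes, 2 are also among the pan-microglia markers below. Fcrls, an Fc receptor-like gene of microglia, rose by 1.12 ± 0.10 in hippocampus (adjusted p = 1.32e-12) and by 1.67 ± 0.18 in cortex (adjusted p = 1.29e-09). Olfml3, which encodes a secreted protein, rose by 0.91 ± 0.11 in hippocampus (adjusted p = 6.17e-08) and by 1.56 ± 0.13 in cortex (adjusted p = 3.96e-13). Slco2b1, a transporter, rose by 0.59 ± 0.07 (adjusted p = 4.81e-08) and 1.06 ± 0.09 (adjusted p = 4.32e-13). Siglech, a sialic acid-binding receptor, rose by 0.82 ± 0.11 (adjusted p = 1.47e-07) and 1.55 ± 0.13 (adjusted p = 4.63e-13).

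The genotype difference of this list was smaller in hippocampus for 6 of its 11 genes and larger for 0. Of all probes 3.28% were past the threshold in this comparison. Hippocampal minus cortical differences were -0.77 ± 0.15 for Siglech (adjusted p = 0.000503), -0.73 ± 0.15 for Gpr34, an orphan receptor of microglia (adjusted p = 0.00106), and -0.69 ± 0.15 for Olfml3 (adjusted p = 0.00255). They were -0.56 ± 0.11 for P2ry13, a nucleotide receptor (adjusted p = 0.00041), -0.50 ± 0.10 for Slco2b1 (adjusted p = 0.00144) and -0.32 ± 0.10 for Mertk, a phagocytic receptor kinase (adjusted p = 0.048). Timp3, a metalloproteinase inhibitor, was the 1 other pathway gene past the threshold there, at -0.46 ± 0.10 (adjusted p = 0.0034).

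The remaining lists had medians between -0.12 and 0.09 in either tissue. Their counts are to be read against the 2.49% of all probes past the threshold in hippocampus and the 19.3% in cortex. Among 11 tested ligand and latency genes Nrros, which anchors latent TGF-beta 1 on microglia, rose by 0.29 ± 0.08 in hippocampus (adjusted p = 0.021) and by 0.50 ± 0.10 in cortex (adjusted p = 0.000393), and Bgn, a matrix proteoglycan that binds TGF-beta, rose by 0.26 ± 0.09 in cortex (adjusted p = 0.0442). Of the other receptors 0 of 7 were past the threshold in hippocampus and 1 of 6 in cortex, the co-receptor Eng of endothelial cells, higher by 0.35 ± 0.09 (adjusted p = 0.00579). Of 4 other Smads 0 were past it in hippocampus and Smad5, of the BMP branch, rose by 0.19 ± 0.07 in cortex (adjusted p = 0.0366). The common partner Smad4 differed by 0.03 ± 0.05 in hippocampus and 0.00 ± 0.05 in cortex.

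Among 14 Smad regulators 1 fell in hippocampus and 6 in cortex, and none rose, while 97 of 14449 probes fell in hippocampus and 1541 of 14346 in cortex. Their median difference in cortex was -0.12, against -0.03 over all probes. Ppm1a, a phosphatase of SMAD2 and SMAD3, fell by 0.13 ± 0.04 in hippocampus (adjusted p = 0.0402) and by 0.17 ± 0.03 in cortex (adjusted p = 4.58e-05). In cortex Wwp1, a ubiquitin ligase, fell by 0.28 ± 0.07 (adjusted p = 0.0017), Fkbp1a, which binds the type I receptor, by 0.23 ± 0.06 (adjusted p = 0.00341) and Nedd4l, a ubiquitin ligase, by 0.17 ± 0.05 (adjusted p = 0.00522). Of 16 target genes 1 fell in hippocampus, and 2 rose and 2 fell in cortex, close to the share of all probes there. Tsc22d1, a leucine-zipper gene, fell by 0.42 ± 0.11 in hippocampus (adjusted p = 0.0296) and by 0.32 ± 0.09 in cortex (adjusted p = 0.0127). In cortex Timp3 rose by 0.22 ± 0.05 (adjusted p = 0.0017) and Col4a1, a basement membrane collagen, by 0.42 ± 0.12 (adjusted p = 0.0114), while Junb, an AP-1 subunit, fell by 0.51 ± 0.16 (adjusted p = 0.019). Of 9 BMP ligands and receptors, 0 were past the threshold in hippocampus, and the receptor Bmpr1b rose in cortex by 0.35 ± 0.09 (adjusted p = 0.00245).

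With the control oligonucleotide 2 of 72 tested genes of these lists were past the threshold in hippocampus, where 1.29% of all probes were, and 4 of 71 in cortex, where 2.63% were. In hippocampus Cdkn1a, a cell-cycle inhibitor and TGF-beta target, rose by 0.72 ± 0.14 in CON ASO mice over PBS mice (adjusted p = 0.0025) and Bmp7, a BMP ligand, by 0.59 ± 0.16 (adjusted p = 0.0487). In cortex Col1a1, a fibrillar collagen, rose by 0.43 ± 0.12 (adjusted p = 0.0362), Ccn2, a matricellular target, by 0.31 ± 0.09 (adjusted p = 0.0371) and Chrd, a BMP antagonist, by 0.26 ± 0.06 (adjusted p = 0.0157), and Ltbp4, a latency protein, fell by 0.25 ± 0.07 (adjusted p = 0.0356). The summed signal of the choroid plexus and meninges markers, a list that also holds Col1a1, ranged from 13094 to 52994 in hippocampus of CON ASO mice, against 8617 to 44750 in APP/PS1 PBS mice. WT mice, also given PBS, ranged from 10286 to 55097 there. The medians were 36118 in CON ASO, 14534 in APP/PS1 PBS and 40714 in WT mice, so the APP/PS1 PBS group was the low one. In cortex the summed signal ranged from 6087 to 10686 in CON ASO mice, against 5885 to 8406 in APP/PS1 PBS mice. Border macrophage markers rose in the same comparison, 3 of 4 in hippocampus (median 0.73) and 2 of 5 in cortex (median 0.34), with summed signals of 354 to 669 in hippocampus of CON ASO mice, against 163 to 436 in APP/PS1 PBS mice, and of 349 to 648 in cortex, against 344 to 437. Of 8 oligodendrocyte markers 2 fell in hippocampus (median -0.24) and 4 in cortex (median -0.27), with summed signals of 39402 to 52502 in hippocampus of CON ASO mice, against 47374 to 57618 in APP/PS1 PBS mice, and of 39628 to 52970 in cortex, against 48724 to 53811. The part of these cells in the 6 values was not tested. Of CD33 ASO over CON ASO, 0 genes of the 7 pathway lists were past the threshold in either tissue.

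Microglial transcripts rose with the same comparison, and in whole tissue more cells of a type and more RNA per cell cannot be told apart. Of 11 tested pan-microglia markers 9 rose in hippocampus of APP/PS1 PBS mice and 11 in cortex. The shares of all probes past the threshold were 2.49% and 19.3%. Their summed signal ranged from 14690 to 23540 in hippocampus of APP/PS1 PBS mice, against 7473 to 9383 in WT mice. In cortex it ranged from 22997 to 32508, against 9122 to 10910. The brightest markers, Laptm5, C1qb and C1qc, rose by 0.92, 1.00 and 0.98 in hippocampus and by 1.37, 1.56 and 1.55 in cortex (SE 0.09 to 0.13). The genotype difference was smaller in hippocampus for 6 of the 11 and larger for 0, where 3.28% of all probes were past the threshold. Of 11 markers of plaque-associated microglia, 6 rose in hippocampus and 11 in cortex.

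Fewer markers of other cells were past the threshold. Over all probes 2.49% were past it in hippocampus and 19.3% in cortex. The cortical counts of endothelial, border macrophage, oligodendrocyte and neuron markers lay near that share, so nothing is read from them. Of 9 astrocyte markers 1 rose in hippocampus and 5 in cortex, of 9 endothelial and pericyte markers 0 and 2, of the border macrophage markers 0 of 4 and 1 of 5, and of 8 oligodendrocyte markers 0 and 1. Of the choroid plexus and meninges markers 0 of 11 in hippocampus (median -0.74) and 0 of 9 in cortex were past the threshold. Of 9 neuron markers 0 were past the threshold in hippocampus and 2 fell in cortex. The part of the cell mixture in the member genes' values was not tested.

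Within the groups, the ligand and the receptors followed the microglial level from mouse to mouse, and the Smads did not pass the test. Each array's deviation from its group mean was set against that of the mean of the 11 pan-microglia markers, for 5 genes in 2 tissues, 10 relations in all. The permutations shuffled deviations over all arrays of a tissue, not within groups. The spread of the marker mean differed between groups, in cortex from an SD of 0.08 in WT to 0.43 in CD33 ASO mice. The p-values are therefore approximate, and all of them include CD33 ASO replicate 3. In hippocampus (46 arrays) Pearson's r was 0.65 for Tgfbr1 (Spearman's rho 0.50), 0.58 for Tgfbr2 (rho 0.43) and 0.44 for Tgfb1 (rho 0.38), with permutation p of 1e-05, 3e-05 and 0.00209 (0.0004, 0.00357 and 0.0102 for rho). In cortex (45 arrays) it was 0.86 for Tgfbr2 (rho 0.72), 0.72 for Tgfbr1 (rho 0.58) and 0.68 for Tgfb1 (rho 0.54), each with a permutation p of 1e-05, the smallest that 100000 resamples can give (1e-05, 3e-05 and 0.00011 for rho). Adjusted over the 10 relations, these 6 p-values were between 2.5e-05 and 0.00348. For Smad2 and Smad3 r lay between -0.21 and 0.10, with permutation p from 0.145 to 0.702 (adjusted 0.208 to 0.702), and rho between -0.16 and 0.12, with permutation p from 0.286 to 0.989.

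Leaving out the 2 arrays farthest in microglial level gave r of 0.43 for Tgfbr1, 0.33 for Tgfbr2 and 0.29 for Tgfb1 in hippocampus, and 0.63, 0.70 and 0.48 in cortex, with no p computed. Without CD33 ASO replicate 3 it was 0.54, 0.46 and 0.32 in hippocampus and 0.50, 0.74 and 0.51 in cortex, again with no p computed. With the collection day or the chip also removed it lay between 0.45 and 0.68 in hippocampus and between 0.67 and 0.87 in cortex for these 3 genes. For cortical Smad2 r was -0.29 with the chip removed and -0.24 without replicate 3, and for cortical Smad3 -0.32 with the chip removed and -0.08 without replicate 3, with no p computed. In hippocampus r of both Smads stayed between -0.03 and 0.18 under these settings. The arrays of one tissue share their normalization, and mice of one group are the independent units.

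**Figure D4:**
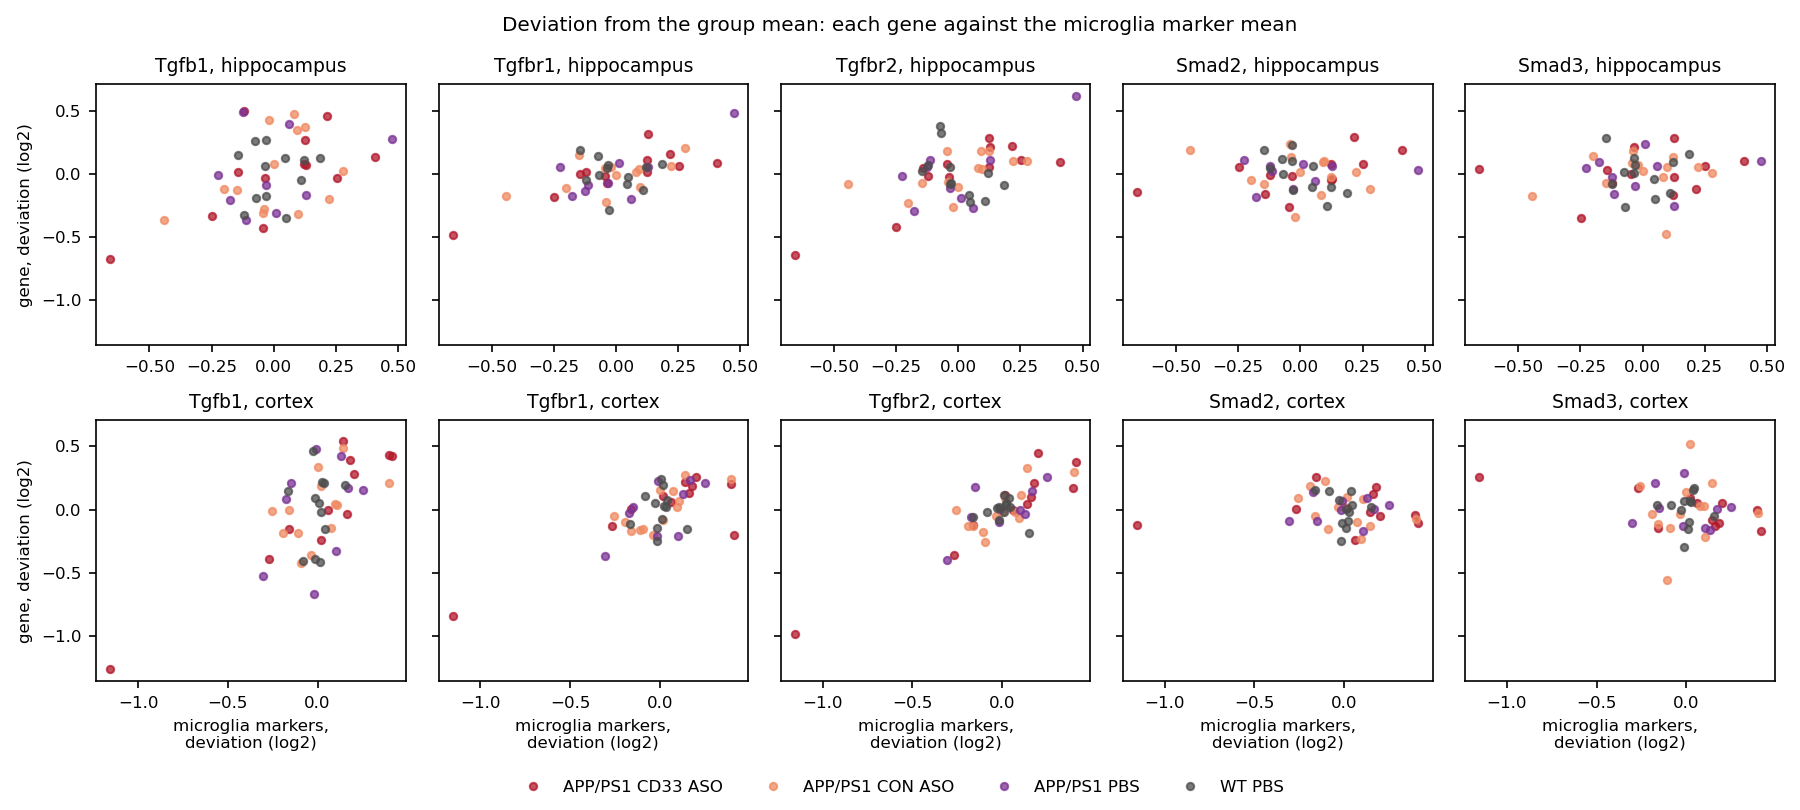
Deviation of each array from its group mean in log2 signal, for 5 genes (vertical axes) against the mean of 11 pan-microglia markers (horizontal axes), in hippocampus (upper row) and cortex (lower row), coloured by group. Tgfbr2 in cortex follows the markers most closely (r = 0.86), the far left point is CD33 ASO replicate 3, and r lies between -0.21 and 0.10 for Smad2 and Smad3.

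The genes most like each member, by Pearson's r of log2 signal over all arrays of a tissue, differed between the receptors and the Smads. For Tgfbr2 they were Ptpn6, Ctsh and Anxa3 in hippocampus (r = 0.91, 0.91 and 0.90, 46 arrays) and Klhl6, Nckap1l and Laptm5 in cortex (0.98, 0.98 and 0.98, 45 arrays). For Tgfbr1 they were Ptpn6, Selplg and Klhl6 in hippocampus (0.92, 0.90 and 0.90) and Gusb, Olfml3 and Anxa3 in cortex (0.96 each). For Tgfb1 they were Man2b1, Olfml3 and Pld4 in hippocampus (0.89 each) and Gpr84, Man2b1 and Plcg2 in cortex (0.95 each). By deviations from the group means, the nearest gene to Tgfbr2 was Ptpn6 in hippocampus (0.77) and Nckap1l in cortex (0.90), to Tgfbr1 Ptpn6 (0.77) and Trem2 (0.83), and to Tgfb1 Celsr2 (0.79) and Lag3 (0.87). Without CD33 ASO replicate 3 these 6 values were 0.70 and 0.82 for Tgfbr2, 0.69 and 0.71 for Tgfbr1, and 0.79 and 0.82 for Tgfb1, while the values over all arrays lay between 0.89 and 0.98.

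Over all arrays the Smads had no neighbour as close, but that r also carries the difference between genotypes. By deviations from the group means, the highest r for Smad2 was 0.63 with Paip1 in hippocampus and 0.69 with Agfg1 in cortex. For Smad3 it was 0.53 with Myo18a and 0.65 with Ift43. Without CD33 ASO replicate 3 these were 0.67 and 0.70 for Smad2, near the lower receptor values above, and 0.54 and 0.64 for Smad3. The highest r over all arrays for Smad2 was 0.63 with Tent4a in hippocampus and 0.71 with Agfg1 in cortex, and for Smad3 0.53 with Srxn1 and 0.63 with Ift43. Between the members, deviations from the group means of Tgfbr1 and Tgfbr2 correlated at r = 0.72 in hippocampus and 0.78 in cortex. Tgfb1 and Tgfbr2 correlated at 0.37 in hippocampus and 0.72 in cortex, and Smad2 with Smad3 at -0.06 and -0.00. Without CD33 ASO replicate 3 the values were 0.65 and 0.63 for Tgfbr1 with Tgfbr2, 0.25 and 0.58 for Tgfb1 with Tgfbr2, and -0.05 and 0.03 for Smad2 with Smad3. Over all arrays the Smads' nearest neighbours kept r between 0.53 and 0.72 without it. These correlations describe arrays that share their tissue normalization and carry no test.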

How the data were processed

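Total RNA of each tissue was biotin-labelled for Illumina bead arrays, per the labels' protocols. The deposited signal table holds an intensity and a detection p-value per probe and array, per the file headers, and about 23% to 27% of the deposited intensities were below 0, so a background had been subtracted. BeadStudio, GenomeStudio and Partek were used, per the submitters' processing notes. A deposited value table on a log2-like scale, equal in median within each tissue (7.43 in cortex and 7.23 in hippocampus), served as an alternative, and its offset stays unknown.

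Intensities of each tissue were processed with neqc of limma 3.58.1 in R 4.3.3 (normal-exponential background from the detection p-values, offset 16, quantile normalization, log2). Probes with a detection p under 0.05 on at least 9 arrays were kept, 14346 in cortex, 14449 in hippocampus and 15228 in both together. A limma model of 4 groups per tissue (empirical Bayes with trend and robust, two-sided, Benjamini-Hochberg threshold 0.05) gave the comparisons, and a joint model of 8 groups with the mouse as a random block (statmod 1.5.0, correlation 0.165) those between tissues. Permutation tests are two-sided. Fits were tested on simulated data.

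Each sample's group is the genotype and treatment its title gives, and replicates are separate mice. Probe symbols came from the array annotation (16814 probes named, 8883 not), matched to RefSeq. Member genes, lists and comparisons were chosen with earlier results of these data known. All probes of the member genes were named, then from each pathway list up to 4 genes of smallest p past the threshold in a genotype comparison, every listed gene past it in an oligonucleotide comparison or the tissue difference, the brightest 3 markers of a list, the 3 most alike genes, and Cd33 and Thy1; not every one is printed. Tissue differences within the APP/PS1 groups were added after seeing the data. Tissue differences of WT and APP/PS1 PBS mice enter the comparison the genes were chosen on and are given without a test. Alternatives covered background correction, normalization, the value table, filters, chip, day, replicate and mouse blocks, the compared groups alone, single arrays left out and the doubted mouse.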

Additional observations from a re-analysis of the deposited data

Results flagged for a closer look

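Hippocampal APP/PS1 PBS replicate 6 lay far above the other 8 arrays of its group for both receptors, at 11.22 for Tgfbr1 (others 10.53 to 10.82) and 10.37 for Tgfbr2 (others 9.46 to 9.86). Its pan-microglia markers summed to 23540, against 14690 to 17270 on the others, and its Thy1 was 14.81, equal to the lowest of theirs. The cortex of the same mouse, cortical replicate 4, was highest of 9 for Tgfbr2 (10.72) and among the highest 3 for Tgfbr1 (11.46). Without that hippocampal array the genotype difference in hippocampus was 0.37 for Tgfbr1 and 0.42 for Tgfbr2. The part of the microglial level in these values was not tested.

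Cortical APP/PS1 PBS replicate 5 stood above its group on the dim Tgfbr1 probe, at 6.76. Of 11 readings examined for an array far from the others, each of 1 probe over the 9 APP/PS1 PBS arrays of a tissue, 3 had one. The readings share their arrays, and those of both receptors in hippocampus named the same array. They are not independent, so their count is not set against chance.

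The genotype difference was smaller in hippocampus than in cortex for Tgfbr1 (-0.48) and Tgfbr2 (-0.80), tested as an interaction, with the caveat that the genes were chosen for it.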

How the results depend on the processing

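No value past the threshold turned its direction under the alternatives run. The count of probes past the threshold stayed at 3 in hippocampus for the genotype and between 3 and 4 in cortex, at 2 for the genotype difference between tissues, and at 0 in all 6 oligonucleotide comparisons, under those alternatives. With each array left out in turn these counts were 3, 4, 2 to 3 (3 without cortical APP/PS1 PBS replicate 5) and 0. Counts of tissue differences here include the dimmer Tgfbr1 probe, undetected in hippocampus, and for WT and APP/PS1 PBS they are descriptive. Those of the oligonucleotide groups come from comparisons added after the data had been seen. The count of the WT tissue difference, 4, was 2 with no mouse block, 2 with no filter on dim probes, and 2 to 5 with 1 array left out (2 without hippocampal WT replicate 2 or 9). Without the filter 25697 probes were tested, and the cause of the lower count was not tested. The count in CD33 ASO mice, 5, was 3 with median centring, and the cause was not tested.

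Replicate numbers do not name shared mice: within a tissue, arrays of the same number in different groups come from different mice. Of such pairs, 29 of 61 in cortex and 41 of 63 in hippocampus had deviations correlated above 0.1, with a median r of 0.09 and 0.16. Pairs of unlike numbers were not set beside them, so a deviation shared by number was not tested. With the replicate block the counts were 3 and 4 for the genotype, 2 for its difference between tissues, 0 for the oligonucleotides, 3 for WT, 5 for APP/PS1 PBS and CON ASO and 6 for CD33 ASO tissue differences.

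The second Tgfbr1 probe lies close to the background. Tgfb1, with group means from 6.38 to 7.71, was the dimmest of the other tested probes but was detected on every array. Precision is limited by how many arrays there are.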
